A study of Mus musculus with 12 samples.

Results

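Islets of Langerhans from mice that had lost Taf4 in beta cells were compared 5 weeks and 3 weeks after tamoxifen. The comparison takes the mutant islet libraries of these times that have a count column, which are 2 at 5 weeks (replicates 2 and 3) and 3 at 3 weeks (replicates 1, 2 and 3), 5 of the 12 samples in the series. Replicate 1 at 5 weeks was not analysed here. Values of single libraries are given in the order of these numbers. Further mutant libraries from 1 week (n = 3) and wild type libraries (n = 3) were in the same fit. They entered its filter, its scaling and its estimate of the spread between replicates, and give levels beside the results. The 1-week libraries were also compared with those of 3 weeks, as the step before.

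Every mouse was C57/Bl6 and carried a Cre-ERT2 recombinase under the Ins1 promoter, and all received tamoxifen. Mutant animals carried floxed alleles of Taf4 (Taf4 lox/lox), and the wild type animals kept the unmodified gene. Each library came from islets pooled from a pair of mice and kept in culture before RNA extraction. Recombination was driven by the Ins1 promoter, which is a beta cell promoter, and which of the other cell types in these islets kept Taf4 was not tested here. Age and time after tamoxifen cannot be told apart in this comparison, and the wild type islets have no time series. Xist, which is transcribed from the inactive X of females, had 1592 CPM or more in every mutant library, against 8.68 to 36.3 CPM in wild type libraries, so the wild type levels given beside the results come from mice that also differ in sex. CPM are counts scaled to a common library size.

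Taf4 is a subunit of TFIID, the complex that recognises core promoters and helps to place RNA polymerase II at the start of genes. Beta cells make very large amounts of insulin and depend on a secretory pathway that is sensitive to misfolded protein. When protein folding, amino acid supply or haem is limiting, kinases phosphorylate eIF2 alpha, translation slows, and the factor Atf4 is made and switches on the integrated stress response. Oxidative stress acts through another factor, NRF2, which raises detoxifying and antioxidant enzymes.

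The 5 libraries held between 16597354 and 21581153 counted reads. The most abundant 10 genes took 28.1 and 19.5% of counts in the 2 libraries at 5 weeks, against 35.2 to 39.4% in the 3 libraries at 3 weeks. The 3-week libraries resembled each other closely: the median coefficient of variation over 2486 well expressed genes was 16.0% at 5 weeks and 6.42% at 3 weeks, and over 33 acinar genes it was 103% at 5 weeks and 5.97% at 3 weeks. Acinar genes varied by 70.5% between the 1-week libraries and by 44.2% between wild type libraries. The study's methods describe each library as a biological replicate with its own mice, while the labels give only a number. The p-values rest on the spread between these libraries, which at 3 weeks was small. Taf4 itself, listed as Taf4a, had 21.7 and 27.5 CPM at 5 weeks, against 27.4, 26.3 and 25.9 CPM at 3 weeks. The groups overlapped, and counts over the whole gene in mixed islet cells do not check the labels.

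Of 20180 genes tested, 443 were higher at 5 weeks (2.2%) and 809 were lower (4.01%), at a Benjamini-Hochberg adjusted p below 0.05 in edgeR's quasi-likelihood test and a log2 fold change beyond 1 in either direction. These are called genes below, and a single gene is said to rise or fall where its adjusted p was below 0.05. Without the fold threshold, 1224 genes rose (6.07%) and 1152 fell (5.71%). The CPM of the 2 groups did not overlap for 8268 of the genes tested (41.0%), so a lack of overlap alone says little. The direction of the whole set depended on scaling. Scaling on library totals alone moved the median of all genes by 0.33 on the log2 scale and called 1231 genes higher and 523 lower, so that 70.2% of calls were higher, against 35.4% in the reported fit. Scaling on general endocrine genes moved it by 0.39 and gave 76.2%. The 3-week libraries were also summed to 1, an alternative chosen after seeing the data. Fewer genes were then called in both directions, and most of the named genes no longer had an adjusted p below 0.05.

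Genes of the integrated stress response were higher at 5 weeks. Of its 29 members, 20 were called higher and 1 lower, with a median log2 fold change of 1.48, against -0.01 over all genes tested. Its members took 0.389 and 0.444% of counts at 5 weeks, against 0.129, 0.139 and 0.127% at 3 weeks. The 2 groups of shares did not overlap (exact permutation test, two-sided by doubling the one-sided p, p = 0.2). This is the smallest p that this form of the test can give for 2 libraries against 3, so none of the 16 lists compared could pass.

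Ddit3, which encodes the stress factor CHOP (chr10:126727830-126733344, plus strand, NCBIM37), had 290 and 219 CPM at 5 weeks, against 21.7, 21 and 21.7 CPM at 3 weeks. Every 5-week library was far above every 3-week one, and the log2 fold change was 3.57 ± 0.16 (SE, adjusted p = 1.36e-10, edgeR). Trib3, a pseudokinase that CHOP and Atf4 induce, had 45.4 and 55.9 CPM at 5 weeks, against 2.54, 2.8 and 1.36 CPM at 3 weeks. It rose by 4.48 ± 0.32 on the log2 scale (SE, adjusted p = 4.99e-08, edgeR). Chac1, an enzyme that breaks down glutathione, had 161 and 167 CPM at 5 weeks, against 22.4, 23.4 and 22.8 CPM at 3 weeks. Both libraries at 5 weeks agreed closely for this gene, with a log2 fold change of 2.84 ± 0.30 (SE, adjusted p = 4.63e-06, edgeR). Atf4, the factor that drives the response, had 479 and 379 CPM at 5 weeks, against 148, 162 and 148 CPM at 3 weeks, a log2 fold change of 1.49 ± 0.17 (SE). Gdf15, a secreted stress hormone, rose by 3.76 on the log2 scale, with 8.07 and 7.80 CPM at 5 weeks, against 0.805, 0.689 and 0.209 CPM at 3 weeks. These 5 genes kept their call under every alternative that was run. Herpud1, an ER-associated degradation factor, rose less, by 0.74, and its adjusted p of 0.023 was lost when either 5-week library, or 3-week replicate 1 or 3, was left out. The member called lower, Stc2, a secreted glycoprotein chosen for mention after its values were seen, was near 0 with 0.0396 and 0.615 CPM at 5 weeks, against 2.41, 1.99 and 0.731 CPM at 3 weeks, and was not called by DESeq2 or without 5-week replicate 2.

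**Figure D1:**
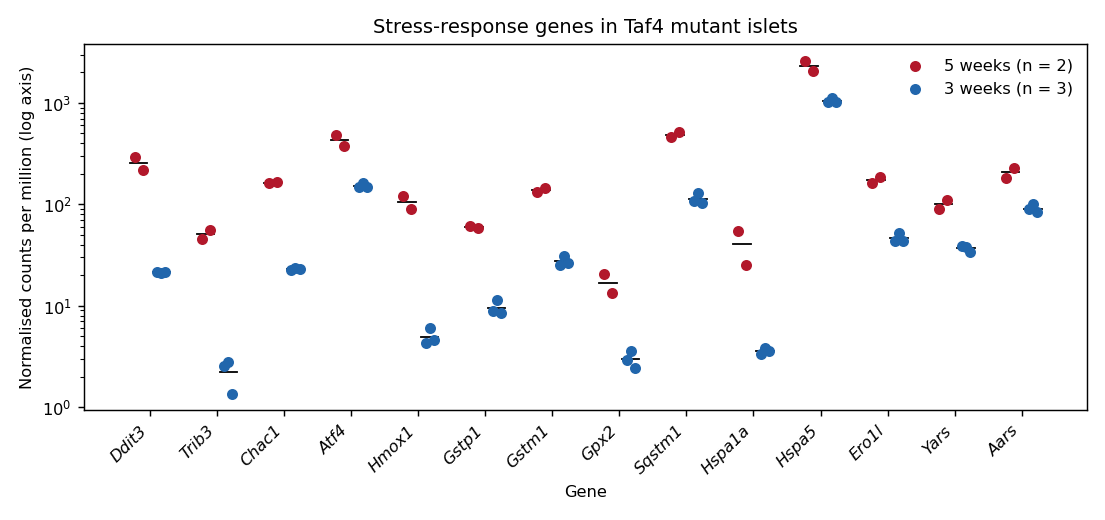
Normalised CPM on a log axis for 14 stress genes, with a point for each library and a line at the mean, for mutant islets at 5 weeks (left, red) and 3 weeks (right, blue). The 5-week points lie above all 3-week points for every gene shown, by the widest margins for Trib3 and Hmox1.

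The promoters of these genes were read because Atf4 and CHOP bind a composite element that contains the letters TGATGCA. The letters were searched on both strands in windows of 300 bases, 250 before and 50 after each annotated start, from RefSeq (GRCm38.p6). Windows were matched for 26 of the 29 genes of the list. The motif was in 8 of them (30.8%) and in 4 of 12 matched aminoacyl-tRNA synthetase genes (33.3%), against 2.63% of 12622 matched genes among all tested. Both lists hold genes chosen for their place in the Atf4 response, so a higher share in them can follow from that choice. Among the called genes as a whole the motif was in 5.5% of those higher (17 of 309 matched) and 2.48% of those lower. Of those 17 genes, 6 were members of the integrated stress response list. A match is a description of the sequence and not evidence of binding. The windows of Chac1 (chr2:119350992-119351291, plus strand) and of Slc7a11 (chr3:50443564-50443863, minus strand), the cystine transporter, are shown 5′ to 3′ with the motif or its reverse complement in capitals, since one holds a single match and the other a pair.
Chac1: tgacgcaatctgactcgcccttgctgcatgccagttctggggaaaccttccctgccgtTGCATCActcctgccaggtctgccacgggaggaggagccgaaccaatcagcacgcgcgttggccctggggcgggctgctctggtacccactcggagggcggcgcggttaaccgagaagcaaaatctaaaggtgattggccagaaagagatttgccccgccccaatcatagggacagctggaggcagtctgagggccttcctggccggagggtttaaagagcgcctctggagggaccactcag
Slc7a11: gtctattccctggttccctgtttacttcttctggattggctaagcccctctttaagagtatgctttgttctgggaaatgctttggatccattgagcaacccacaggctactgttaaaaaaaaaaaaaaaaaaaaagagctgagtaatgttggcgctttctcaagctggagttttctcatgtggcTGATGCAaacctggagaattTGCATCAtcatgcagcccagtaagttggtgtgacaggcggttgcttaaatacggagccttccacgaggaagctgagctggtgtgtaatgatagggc

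Slc7a11, named after its values were seen, had 9.26 and 8.5 CPM at 5 weeks, against 2.92, 1.42 and 3.45 CPM at 3 weeks, a log2 fold change of 1.78 (adjusted p = 0.0017, edgeR).

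Aminoacyl-tRNA synthetases, which load amino acids on tRNAs and are themselves Atf4 targets, moved by less but together. All 20 had a positive log2 fold change, 15 rose and 4 were called, and the median was 0.80. Scaling on library totals called 12 of them and scaling on endocrine genes 14. Moving upward together was not particular to this list. Of 83 cytosolic ribosomal protein genes 79 had a positive log2 fold change, and of 34 proteasome genes 32 did, with medians of 0.58 and 0.45. Among 68 chromatin remodellers and modifiers, 32 were positive. Yars had 90.3 and 111 CPM at 5 weeks, against 39.2, 37.6 and 34 CPM at 3 weeks, and rose by 1.45. Aars and Eprs rose by 1.19 and 1.11. Wars rose by 1.1, a call lost without 5-week replicate 3.

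ER chaperones and degradation factors rose in part. Of 37 members, 12 rose, none fell and 3 were called, with a median of 0.17. Hspa5, the main ER chaperone BiP, had 2612 and 2058 CPM at 5 weeks, against 1010.1, 1107 and 1018 CPM at 3 weeks, a log2 fold change of 1.16 ± 0.20 (SE, adjusted p = 0.00068, edgeR). Ero1l, an oxidase that forms disulphide bonds in the ER, had 164 and 185 CPM at 5 weeks, against 43.9, 51.7 and 43.1 CPM at 3 weeks, and rose by 1.92. Derl1, a channel component for degradation, rose by 1.18.

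Antioxidant genes controlled by NRF2 were higher as well. Of 28 members, 15 were called higher and none lower, with a median log2 fold change of 1.09. The cystine transporter Slc7a11 is counted in both this list and the integrated stress response. Hmox1, which degrades haem (chr8:77617490-77624495, plus strand, NCBIM37), had 120 and 89.2 CPM at 5 weeks, against 4.32, 6 and 4.54 CPM at 3 weeks. It rose by 4.40 ± 0.28 on the log2 scale (SE, adjusted p = 3.52e-08, edgeR), and the groups were far apart. Gstp1, a glutathione transferase, had 60.9 and 58.6 CPM at 5 weeks, against 8.85, 11.4 and 8.46 CPM at 3 weeks. Gstm1, another transferase, had 134 and 144 CPM at 5 weeks, against 25.5, 31.2 and 26.6 CPM at 3 weeks. Their log2 fold changes were 2.64 and 2.32, and that of Gpx2, a glutathione peroxidase, was 2.5. Sqstm1, the autophagy adaptor p62, had 464 and 511 CPM at 5 weeks, against 109, 128 and 102 CPM at 3 weeks, and rose by 2.11.

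Inducible heat shock genes and p53 targets added to this group. Of 23 heat shock genes, 4 were called higher, and of 21 p53 targets 6 were, with none called lower in either list and medians of 0.19 and 0.45. Of the heat shock genes 14 of 23 had a positive log2 fold change. Hspa8, the constitutive HSP70, fell by 0.65 (adjusted p = 0.041, edgeR) and Btg2, an antiproliferative p53 target, by 0.48 (adjusted p = 0.046, edgeR). Neither was past the fold threshold. Neither kept an adjusted p below 0.05 when 5-week replicate 3 or any 3-week library was left out. Sesn2, a sensor of amino acids, is a member of both the p53 and the integrated stress response list. Hspa1a, the stress-inducible HSP70, had 55.1 and 25.4 CPM at 5 weeks, against 3.35, 3.85 and 3.6 CPM at 3 weeks, a log2 fold change of 3.48. Its mean was 12.1 CPM at 1 week and 12.9 CPM in wild type islets. From 1 to 3 weeks Hspa1a fell by 1.74 on the log2 scale (adjusted p = 0.0011, edgeR), so the rise starts from a low level. Hspa9, the mitochondrial HSP70, rose by 1.61. Among p53 targets, Gadd45a rose by 1.97, Sesn2 by 1.54 and the pro-apoptotic Bax by 1.45.

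Cyp1a1, a detoxifying cytochrome P450 that the aryl hydrocarbon receptor induces, had the largest log2 fold change among named genes that were higher, 7.84 ± 0.76 (SE, adjusted p = 1.55e-06, edgeR). It had 13.7 and 16.3 CPM at 5 weeks, against 0.127, 0.0405 and 0 CPM at 3 weeks. Ahr, which encodes that receptor and was named after its values were seen, had 4.75 and 4.48 CPM at 5 weeks, against 11, 10.5 and 7.78 CPM at 3 weeks. Dock5, an exchange factor for Rac, had 131 and 179 CPM at 5 weeks, against 18.5, 17.2 and 18.7 CPM at 3 weeks, and rose by 3.09. Gsdma, Stbd1, Entpd2, Akna and Avpi1 were among the 12 largest changes upward, between 3.11 and 4.07.

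Insulin and part of the granule cargo were lower. Of 18 genes of this list, 5 were called lower and 2 higher, with a median of -0.60. Scaling on library totals left 1 called lower with a median of -0.27, scaling on endocrine genes left 3 with a median of -0.20, and summing the 3-week libraries left 2. Ins2 had 56773 and 21435 CPM at 5 weeks, against 136061, 114317 and 147738 CPM at 3 weeks, and fell by 1.76 on the log2 scale. Ins1 had 3631 and 4595 CPM at 5 weeks, against 11384, 13465 and 11504 CPM at 3 weeks, and fell by 1.56. Wild type means were 58161 CPM for Ins2, below every 3-week library, and 94543 CPM for Ins1, above every 3-week library. The groups did not overlap for either gene, as for 41.0% of all genes tested. Both calls were lost without 3-week replicate 1 and without another 3-week library (replicate 2 for Ins1, replicate 3 for Ins2). Both were also lost with scaling on library totals and with the 3-week libraries summed. Ins2 counts divided by Ins1 counts gave 15.6 and 4.67 at 5 weeks, against 12.0, 8.49 and 12.8 at 3 weeks, and the groups overlapped (exact permutation test of log2 ratios, two-sided, p = 0.8). Leaving out 1 library at 5 weeks turned the direction of this difference, with a log2 difference of 0.52 without replicate 3 and -1.23 without replicate 2. The 2 genes are close copies and only reads with a single location were counted.

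Ucn3 encodes urocortin 3, which beta cells make once mature. Ucn3 had 36 and 22.2 CPM at 5 weeks, against 81.7, 81.5 and 96.1 CPM at 3 weeks, and fell by 1.57. Ero1lb, the beta cell oxidase for proinsulin folding, had 386 and 439 CPM at 5 weeks, against 975, 1069.5 and 1012 CPM at 3 weeks, and fell by 1.31 while its relative Ero1l rose. Vgf, a granule protein, rose by 1.48. Of 37 genes of glucose sensing, 3 were called lower and none higher, beside 4.01% and 2.2% of all genes. The list as a whole did not move, with 19 of 37 positive and a median of 0.02. Of its members 4 fell and 2 rose, Stx1a by 0.98 and G6pdx by 0.96. G6pc2, an islet glucose-6-phosphatase, had 184 and 133 CPM at 5 weeks, against 611, 730 and 668 CPM at 3 weeks, a log2 fold change of -2.08 ± 0.25 (SE, adjusted p = 1.71e-05, edgeR). Gipr, an incretin receptor, fell by 1.55. Prlr, the prolactin receptor, fell by 1.05, a call lost with scaling on library totals. Txnip, a glucose-responsive inhibitor of thioredoxin, had 52.5 and 38.4 CPM at 5 weeks, against 165, 177 and 179 CPM at 3 weeks, and fell by 1.93.

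Of 21 beta cell transcription factors, 4 fell, 1 rose and 1 was called lower, a share near the 4.01% of all genes, with a median of -0.19 that turned positive with scaling on library totals (0.15) and on endocrine genes (0.21). The called member was Bhlha15, a factor of secretory cells that is also on the acinar list. Bhlha15 averaged 12.9 CPM at 5 weeks and 29.9 CPM at 3 weeks, beside 70.1 CPM at 1 week and 158 CPM in wild type islets, and its call was lost when 5-week replicate 2 or any 3-week library was left out. Nkx6-1 had 112 and 166 CPM at 5 weeks, against 244, 253 and 249 CPM at 3 weeks, and fell by 0.84. It did not keep an adjusted p below 0.05 without 5-week replicate 2, or with scaling on library totals or on endocrine genes. Mafa, the maturity factor, had a log2 difference of -0.70 that did not pass the test (adjusted p = 0.15, edgeR). Slc2a2, the glucose transporter, had 7.99 and 4.54 CPM at 5 weeks, against 9.95, 11.7 and 9.14 CPM at 3 weeks, and did not pass either (adjusted p = 0.28, edgeR). Its mean was 476 CPM in wild type islets, far above both times.

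Markers of the other endocrine cells did not move as a block. Alpha cell markers took 12.7 and 9.26% of counts at 5 weeks, against 11.8, 10.7 and 12.6% at 3 weeks, and 1 of 15 was called lower. Gcg, which encodes glucagon, did not pass the test, with a log2 difference of -0.41 (adjusted p = 0.58, edgeR). Sst, the hormone of delta cells, had 3219 and 2533 CPM at 5 weeks, against 13846, 7497 and 15196 CPM at 3 weeks, and fell by 2.08. The mean of Sst was 3538 CPM in wild type islets, below every 3-week library. Of 12 delta markers 4 were called lower.

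**Figure D2:**
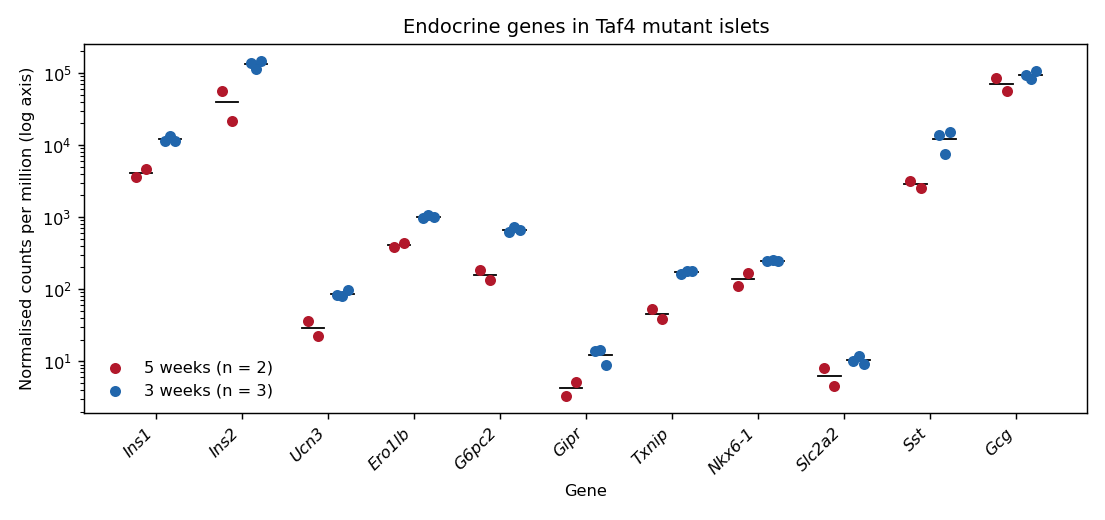
Normalised CPM on a log axis for 11 endocrine genes, with a point for each library and a line at the mean, for mutant islets at 5 weeks (left, red) and 3 weeks (right, blue). Ins1, Ins2, Ucn3, Ero1lb, G6pc2 and Txnip lie lower at 5 weeks in every library, while the 5-week and 3-week points of Gcg overlap.

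Exocrine genes were much lower at 5 weeks. Of 39 acinar markers, which encode digestive enzymes and their zymogens, 36 were called lower and none higher, with a median log2 fold change of -5.64. They took 0.241 and 0.0373% of counts at 5 weeks, against 3.81, 5.10 and 3.94% at 3 weeks. The mean share was 18.4% at 1 week and 46.7% in wild type islets. In bulk samples, fewer cells of a type and less RNA per cell cannot be told apart. Rnase1, the pancreatic ribonuclease, had 18.9 and 3.93 CPM at 5 weeks, against 1423, 1387 and 1582 CPM at 3 weeks, a log2 fold change of -7.01. The Reg genes, secreted lectins of acinar and stressed islet cells, were lower by a like amount, with 6 of 6 called lower and a median of -5.67. Reg3b had 2 counts in all at 5 weeks, against 1654 counts at 3 weeks, a ratio of 728 for 3 weeks over 5 weeks (95% exact interval 201 to 6020, counting error only). Both 5-week libraries were low, but they differed from each other: without replicate 2 the acinar median was -7.63, and without replicate 3 it was -4.91.

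Genes of blood vessels and their support cells were lower too. Of 17 endothelial markers none had a positive log2 fold change and 7 were called lower, with a median of -0.95. Flt1, a receptor for VEGF, had 14 and 21.9 CPM at 5 weeks, against 97.3, 91.4 and 90.8 CPM at 3 weeks, and fell by 2.37 (adjusted p = 8.54e-07, edgeR). Plvap, a protein of fenestrated capillaries, fell by 2.83 and Emcn by 1.82. Of 26 pericyte, stellate and fibroblast markers, 15 were called lower and 1 higher, with a median of -1.33, and without 5-week replicate 2 9 were called lower. Rgs5, a pericyte marker, had 15.5 and 10.6 CPM at 5 weeks, against 140, 144 and 144 CPM at 3 weeks, and fell by 3.45 (adjusted p = 2.02e-07, edgeR). Acta2, smooth muscle actin, had 0.514 and 0.528 CPM at 5 weeks, against 6.18, 9.49 and 7.47 CPM at 3 weeks. Of 28 matrix receptor and laminin genes 11 were called lower, among them Hspg2 (perlecan) by 3.17 and Lama3 by 3.01. Of 21 macrophage and neutrophil markers 6 were called lower and 1 higher. Ductal markers were divided: 8 of 16 had a positive log2 fold change and the median was 0.06. Of the 16, 5 rose and none fell, and 3 were called higher, among them Krt7 by 1.09. Their share of counts was 0.0862 and 0.0882% at 5 weeks, against 0.0465, 0.0486 and 0.0457% at 3 weeks. The part of the lower marker levels of other cell types in the other results was not tested. With the acinar markers left out of the fit, 443 genes were called higher and 797 lower, of 20779 tested. Of these calls, 1207 were shared with the reported fit, so the genes called were not the same set. Exocrine genes outside the list stayed in that fit, so it cannot show what part exocrine RNA has in the results.

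**Figure D3:**
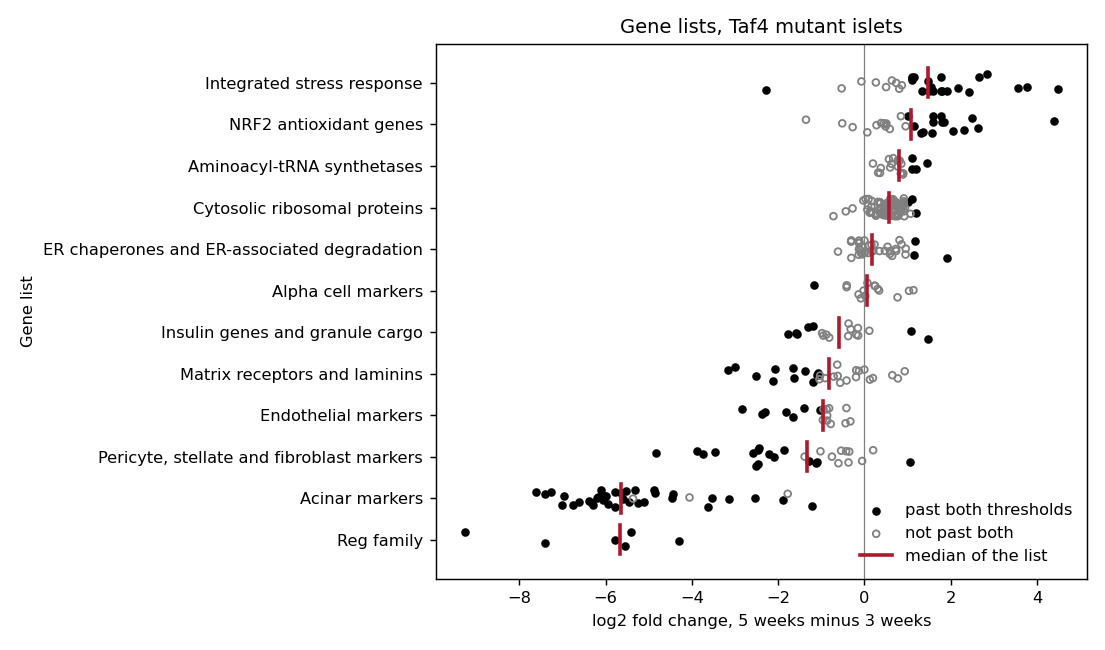
Each point is a gene of the list named on the vertical axis, placed at its log2 fold change of 5 weeks minus 3 weeks. Filled points passed both thresholds, open ones did not, and the red line is the median, which runs between 1.48 for the integrated stress response and -5.67 for Reg genes.

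**Figure D4:**
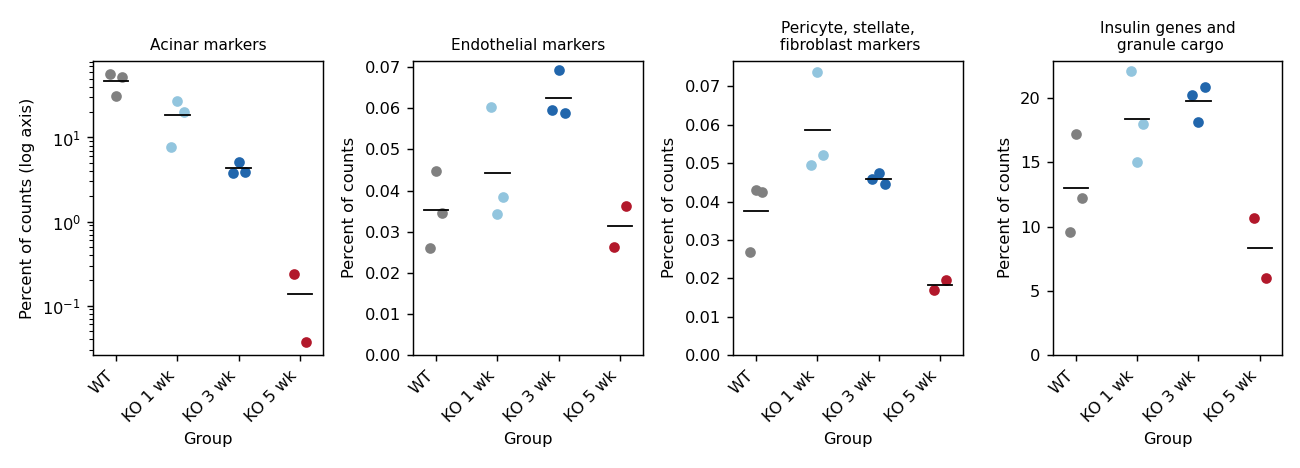
Percent of counts taken by 4 marker lists in each library, with a line at the group mean, for wild type islets (n = 3) and mutant islets at 1 week (n = 3), 3 weeks (n = 3) and 5 weeks (n = 2). The acinar panel has a log axis, on which the 5-week libraries lie at 0.241 and 0.0373%.

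The 2 libraries at 5 weeks differed in mitochondrial and ribosomal transcripts. Mitochondrially encoded mRNAs took 3.06 and 1.05% of counts at 5 weeks, against 3.49, 3.28 and 3.62% at 3 weeks, and 4 of 8 were called lower. With 5-week replicate 3 left out none of the 8 was called, and with replicate 2 left out all 8 were. Cytosolic ribosomal protein genes took 0.7 and 0.449% of counts at 5 weeks, against 0.308, 0.336 and 0.300% at 3 weeks. Of 83, 20 rose and 3 were called, and 26 were called without 5-week replicate 3.

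Immediate early genes divided. Of 32, 5 were called higher and 6 lower. Fos had 2.37 and 1.9 CPM at 5 weeks, against 14.8, 15.5 and 14 CPM at 3 weeks, and fell by 2.79. Egr1 fell by 1.45 and Nr4a1 by 1.89. Of 18 TFIID subunit genes 1 was called, Tbpl1, a relative of the TATA-binding protein, which rose by 1.05. Taf4b, the close relative of Taf4, had 11.1 and 12.7 CPM at 5 weeks, against 9.49, 5.47 and 10 CPM at 3 weeks, and did not pass the test (adjusted p = 0.24, edgeR).

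The step before, 3 weeks minus 1 week, shares the 3-week libraries, so its values are given only side by side. There 40 genes were higher (0.198%) and 377 lower (1.87%). The integrated stress response list had no member called higher and 1 called lower at that step, with a median of -0.39, against 1.48 at 5 weeks minus 3 weeks. Ddit3 had a log2 difference of -0.07 and Hmox1 of -0.73 at the earlier step, and neither passed the test. NRF2 genes had a median of -0.19. Endothelial markers had a median of 0.02 and none called. Rgs5 had a difference of -0.02, but 6 of the 26 pericyte, stellate and fibroblast markers were called lower, with a median of -0.79. The acinar list had 36 of 39 called lower at the earlier step as well and a median of -2.65. Reg genes had 6 of 6 called lower there, with a median of -3.99. Of 21 macrophage and neutrophil markers 9 were called lower, with a median of -1.03. Of 83 cytosolic ribosomal protein genes 16 were, with a median of -0.75. Ins1 fell by 1.5 at the earlier step, and Ins2 had a log2 difference of -0.23 there that did not pass the test.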

How the data were processed

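Islet RNA was amplified linearly from small inputs and sequenced. Per the labels and the study's methods, the authors aligned reads to mm9 with STAR 2.5.3a after filtering with cutadapt 1.10 and Bowtie2 2.2.8, counted unique reads per Ensembl gene with HTSeq, and deposited raw counts for 11 libraries. Whether counting used strand was not given in the sources used here, and reads of overlapping antisense genes may be counted together. The deposited median of transcript lengths per gene was used as an annotation and to sort the tested genes into 5 bins. The median log2 fold change of 5 weeks minus 3 weeks fell steadily with length, from 0.08 in the shortest bin to -0.08 in the longest. Among better expressed genes it fell from 0.19 to 0.03. In the same genes the median log2 difference of 5-week replicate 2 minus replicate 3 fell from 0.06 to -0.23. The part of transcript length in the list results was not tested. Columns holding the authors' own comparisons were not used.

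Counts were tested with edgeR 4.0.16 (R 4.3.3) over all 4 groups, with filterByExpr and TMM scaling, quasi-likelihood fits and Benjamini-Hochberg adjustment over 20180 of 34820 genes. CPM values use TMM-scaled totals, while shares use unscaled totals. DESeq2 1.42.0 was an alternative. Shares were compared by exact permutation (scipy). The script was tested on simulated data. Coordinates are NCBIM37. Members and lists were chosen with earlier results of these data known. Named genes were a fixed set, of which some are not reported here, the 12 largest changes per direction at 10 CPM or more without overlap between groups, the 6 largest CPM differences per direction, and up to 4 list members per direction at 5 CPM or more (2 where none passed).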

Additional observations from a re-analysis of the deposited data

How the results depend on the processing

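Scaling on library totals gave 1231 higher and 523 lower, and on endocrine genes 1706 higher and 533 lower. With these scalings 12 and 14 aminoacyl-tRNA synthetases were called higher, and 1 and 3 insulin and granule genes lower. With the 3-week libraries summed to 1, an alternative chosen after seeing the data, 187 genes were higher, 359 were lower, and 2 insulin and granule genes were lower. The cause was not tested. Leaving out 1 library gave 320 to 529 genes higher and 560 to 766 lower, 9 to 13 pericyte, stellate and fibroblast markers lower, and an Ins2 to Ins1 log2 difference of -1.23 to 0.52. Same-numbered libraries of 3 and 5 weeks had correlations of deviations from their group means of 0.02 and -0.01. The 2 libraries at 5 weeks have deviations that mirror each other, so these values cannot decide whether the numbers pair the samples. With the replicate block 363 genes were higher and 665 lower, and at 3 weeks minus 1 week 26 were higher, against 40 without it. List counts were also set against the counts that remain without mitochondrial mRNAs and the most abundant genes, which stayed in the lists. As a percent of the remaining counts, the differences were -6.97 for acinar, -21.7 for insulin and granule and -2.95 for mitochondrial lists. These are not shares of a library. Taf4a changed sign with scaling on library totals (0.23), on endocrine genes (0.29), and when a 5-week library was left out (-0.29 to 0.057). The 2 libraries at 5 weeks limit precision.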
